A study of Caenorhabditis elegans with 2 samples.

Results

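The 514 regions described here are the strong FKH-3 regions at protein-coding promoters of *Caenorhabditis elegans*, out of 30000 regions in the list of the pooled replicates. They were chosen by signal and position. The 3000 regions of highest signal were taken, and 561 of them had their summit, the point of highest signal, between 500 bp upstream and 100 bp downstream of a transcript start of a protein-coding gene. Of these, 47 lay within 100 bp of a tRNA, snoRNA or snRNA gene and were left out. ChIP-seq, in which DNA bound by a protein is recovered with an antibody and sequenced, was done for FKH-3 on whole young adults of strain OP594, genotype unc-119(tm4063) III; wgIs594, of mixed sex, 63 h after hatched L1 larvae had been synchronised by starvation. The integrated transgene wgIs594 adds FKH-3 with a GFP-FLAG tag at its C-terminus, and the antibody was against GFP. The 2 biological replicates form 1 group and come from this single transgenic line, so no condition was compared with another. No region list from untagged worms or from input chromatin was analysed here, so signal that does not depend on FKH-3 cannot be told apart from binding.

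Forkhead proteins carry a winged-helix DNA-binding domain, and many of them bind sites close to GTAAACA or ATAAACA or GTAAATA or ATAAATA. In *C. elegans* the family includes PHA-4, which specifies the pharynx, and DAF-16, the FOXO protein of insulin signalling. Many worm promoters differ from those of other animals in 1 respect: neighbouring genes on the same strand are often transcribed as an operon from a shared promoter, and the transcripts are then cut apart and capped by trans-splicing of a short leader RNA. Because of trans-splicing, an annotated transcript start is often the leader splice site and lies downstream of the place where transcription begins.

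The sequence under 10 of the strongest regions is shown. These regions were taken by signal and position, and not to represent the kinds of promoter among the members. They include promoters of ribosomal protein genes, a chaperone gene pair and other divergent pairs. Second genes of close same-strand pairs and a promoter with a noncoding RNA gene in it are also among these regions. Their summit surroundings overlap no annotated untranslated region. Each is the plus strand of the RefSeq sequence of WBcel235 (ce11) around the summit. Capitals mark any of the words searched for on both strands: GCGC, a short word of GC-rich promoters, the forkhead words given above, GAANNTTC, a core of the heat shock element, and a B-box word, GGTTCNA with CC after 2 further letters, close to the internal B box of genes read by RNA polymerase III.
rpl-3, chrIII:3867464-3867664: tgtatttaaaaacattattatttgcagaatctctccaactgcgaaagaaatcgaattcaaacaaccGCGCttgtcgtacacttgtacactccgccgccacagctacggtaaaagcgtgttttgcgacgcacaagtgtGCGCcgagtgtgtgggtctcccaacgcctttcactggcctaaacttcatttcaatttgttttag
F44E5.4 and F44E5.5, chrII:11759371-11759571: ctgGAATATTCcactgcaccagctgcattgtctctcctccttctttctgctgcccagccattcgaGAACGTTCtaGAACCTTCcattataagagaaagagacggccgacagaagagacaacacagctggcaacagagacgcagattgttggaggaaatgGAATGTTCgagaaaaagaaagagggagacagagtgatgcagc
C33B4.4, chrII:11376596-11376796: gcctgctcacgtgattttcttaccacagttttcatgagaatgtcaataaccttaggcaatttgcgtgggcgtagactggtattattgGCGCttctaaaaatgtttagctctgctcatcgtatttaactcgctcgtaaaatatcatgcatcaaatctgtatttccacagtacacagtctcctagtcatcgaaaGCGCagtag
rps-16, chrV:15000370-15000530: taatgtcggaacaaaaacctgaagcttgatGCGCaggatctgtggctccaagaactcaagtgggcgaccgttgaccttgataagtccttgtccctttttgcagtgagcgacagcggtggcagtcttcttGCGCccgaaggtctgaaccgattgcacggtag
F42A6.6, chrIV:3336710-3336850: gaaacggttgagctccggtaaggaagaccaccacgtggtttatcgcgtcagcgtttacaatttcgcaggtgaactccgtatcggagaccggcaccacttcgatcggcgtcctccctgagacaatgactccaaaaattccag
Y17G9B.5 and rpl-20, chrIV:4749982-4750182: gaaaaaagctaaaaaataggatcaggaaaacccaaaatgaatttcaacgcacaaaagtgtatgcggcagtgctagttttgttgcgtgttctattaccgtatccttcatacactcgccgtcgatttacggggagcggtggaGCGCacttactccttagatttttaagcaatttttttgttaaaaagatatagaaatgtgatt
Y55F3AR.2 and cct-8, chrIV:1094268-1094468: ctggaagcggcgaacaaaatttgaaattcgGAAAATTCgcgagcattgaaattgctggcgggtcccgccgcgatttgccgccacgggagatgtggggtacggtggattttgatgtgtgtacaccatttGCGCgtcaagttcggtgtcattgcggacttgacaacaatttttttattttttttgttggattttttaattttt
D2096.7, chrIV:8377452-8377652: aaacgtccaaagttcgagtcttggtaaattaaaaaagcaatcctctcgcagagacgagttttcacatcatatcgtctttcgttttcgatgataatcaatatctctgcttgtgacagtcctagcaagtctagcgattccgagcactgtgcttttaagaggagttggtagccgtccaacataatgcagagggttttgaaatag
byn-1, chrIII:6932014-6932134: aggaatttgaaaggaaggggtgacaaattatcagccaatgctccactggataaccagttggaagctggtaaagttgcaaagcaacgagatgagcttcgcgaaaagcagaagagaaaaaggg
T13C5.6, chrX:6207787-6207987: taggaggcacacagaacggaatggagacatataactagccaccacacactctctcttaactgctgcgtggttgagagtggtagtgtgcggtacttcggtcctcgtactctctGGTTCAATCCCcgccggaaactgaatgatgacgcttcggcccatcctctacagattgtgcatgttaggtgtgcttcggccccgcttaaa
None of the 10 sequences held a forkhead word. The *rpl-3*, *C33B4.4* and *rps-16* sequences each held 2 copies of GCGC, and those of *Y17G9B.5* and *Y55F3AR.2* held 1 each. Between the HSP70 genes *F44E5.4* and *F44E5.5* there were 4 matches of GAANNTTC, 1 was in the *Y55F3AR.2* sequence, and the *T13C5.6* sequence held 1 match of the B-box word. The sequences of *rps-16*, *F42A6.6*, *D2096.7* and *byn-1* lie around summits inside a coding exon of the gene.

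The authors' score of a region, whose scale no source states, is its signal, and it is compared here as a rank within a list, with 1 for the highest. The member of highest signal lay on chromosome III from 13464619 to 13464805, 107 bp upstream of the start of *kel-3*, which encodes a protein with a BTB domain. It ranked 11 in the pooled list, 14 in replicate 1 and 11 in replicate 2, with scores of 309.9, 103.9 and 205.5. Its summit falls in the annotated 3'UTR of *cdk-5*, an overlapping gene. A second *kel-3* member, at pooled rank 187 with its summit 87 bp inside the gene, had the same replicate 1 region and so is not a separate observation there. The next member was *rpl-3*, the gene of the ribosomal protein uL3, with ranks of 20, 19 and 24 in the pooled, replicate 1 and replicate 2 lists and a summit 290 bp upstream of the start.

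The 25 members of highest signal had pooled ranks from 11 to 146, and all 25 were among the 441 regions past the irreproducible discovery rate (IDR) threshold. They included *kin-14*, for a tyrosine protein kinase, at ranks 23, 10 and 22 in the pooled, first and second lists. The E3 ubiquitin ligase gene *wwp-1* ranked 37, 60 and 39, and *ego-1*, for an RNA-directed RNA polymerase of the germ line, ranked 44, 36 and 43. These regions are near the top of both replicate lists. The promoter of *kap-1*, for the kinesin-associated protein, ranked 90 in the pooled list and 98 in each replicate. Replicate 1 placed 3 of the 25 outside its own top 441. They were *T13C5.6*, with a lipid phosphatase domain, at 1731 against 61 in replicate 2, *sql-1*, with a GRIP domain, at 993 against 56, and *rpl-35* at 759 against 84. In replicate 2 the lowest of the 25 was *pcrg-1*, the Parkin coregulated gene homologue, at 257. Replicate 2 gave the better rank for 13 of the 25.

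**Figure D1:**
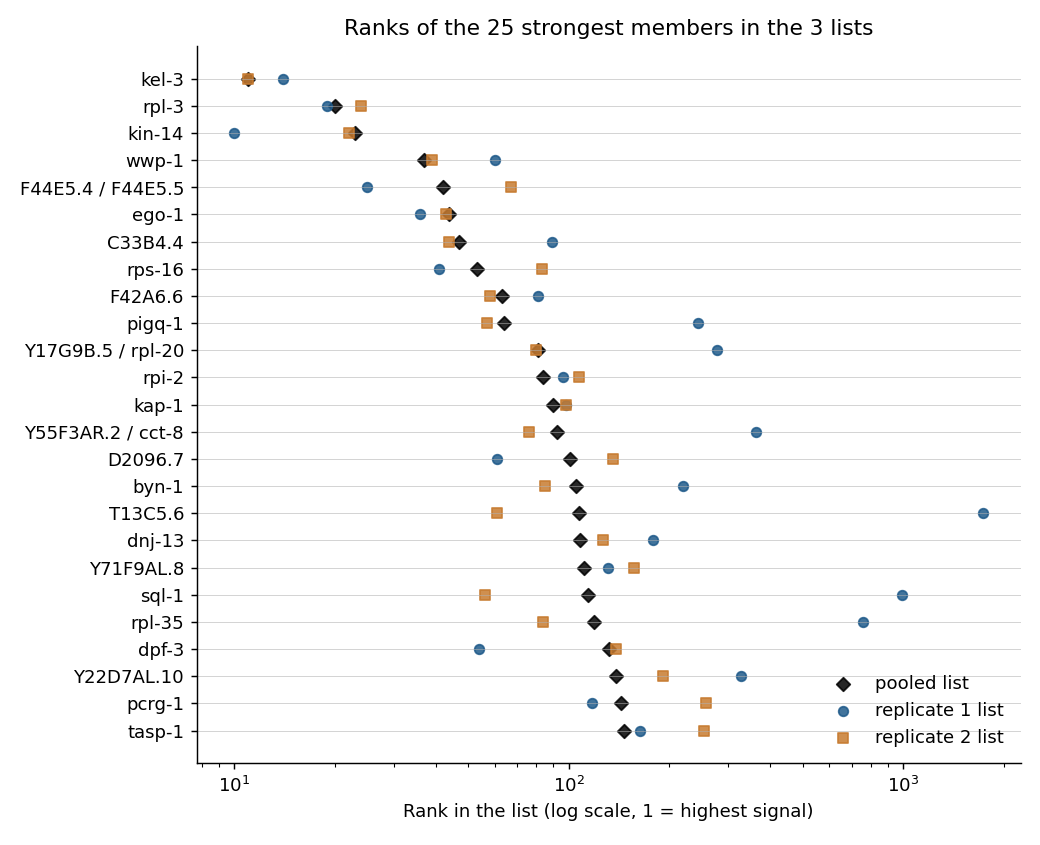
Rank of each of the 25 strongest members (vertical axis, named by target gene) in the pooled list (diamonds), replicate 1 (circles) and replicate 2 (squares), on a logarithmic horizontal axis. The replicate 2 ranks end at 257, and T13C5.6 stands farthest out, at 1731 in replicate 1.

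Across all 514 members the replicates differed more. The rule used the pooled signal, so the ranks in the replicates are given as a description. In the replicate 1 list 480 members (93.4%) had a region over their summit, beside 59.7% of all 30000 pooled regions, and in replicate 2 the count was 509 (99.0%) beside 73.8%. The median rank was 2985 in replicate 1 (quartiles 945.5 and 7029) and 1643 in replicate 2 (quartiles 754 and 3237). A region of the top 3000 of replicate 1 covered 241 summits (46.9%, beside 9.83% of all pooled regions), and of replicate 2, 368 (71.6%, beside 10.6%). Both replicates together placed 156 members in their top 3000 (30.4%, exact 95% confidence interval 26.4 to 34.5%), beside 3.27% of the whole list and 31.7% of the 2486 other regions of the pooled top 3000. The IDR list held 64 members (12.5%), beside 1.47% of all pooled regions and 15.2% of the other strong regions. That list is the 441 pooled regions of highest signal, so it adds nothing to the pooled rank.

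The share of members in the top 3000 of both replicates fell with the pooled rank. Some fall is built into this ranking, because the pooled signal holds both replicates. Other regions of the same ranks were not counted by bin, so whether the fall is particular to promoter members is not known. The share was 66 of 73 (90.4%) for pooled ranks 1 to 500, 56 of 98 (57.1%) for 501 to 1000 and 23 of 88 (26.1%) for 1001 to 1500. From rank 1501 to 3000 it was between 2.5% and 5.81% in each bin of 500. Below pooled rank 1500, nearly all members are therefore in the top 3000 of at most 1 replicate. Replicate 2 alone had 212 members in its top 3000 (41.2%) and replicate 1 alone had 85 (16.5%), and 61 were in neither (11.9%). The other regions of the pooled top 3000 leaned the same way. Of these, 69.8% were in the top 3000 of replicate 2 and 49.4% in that of replicate 1, beside 71.6% and 46.9% of members.

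**Figure D2:**
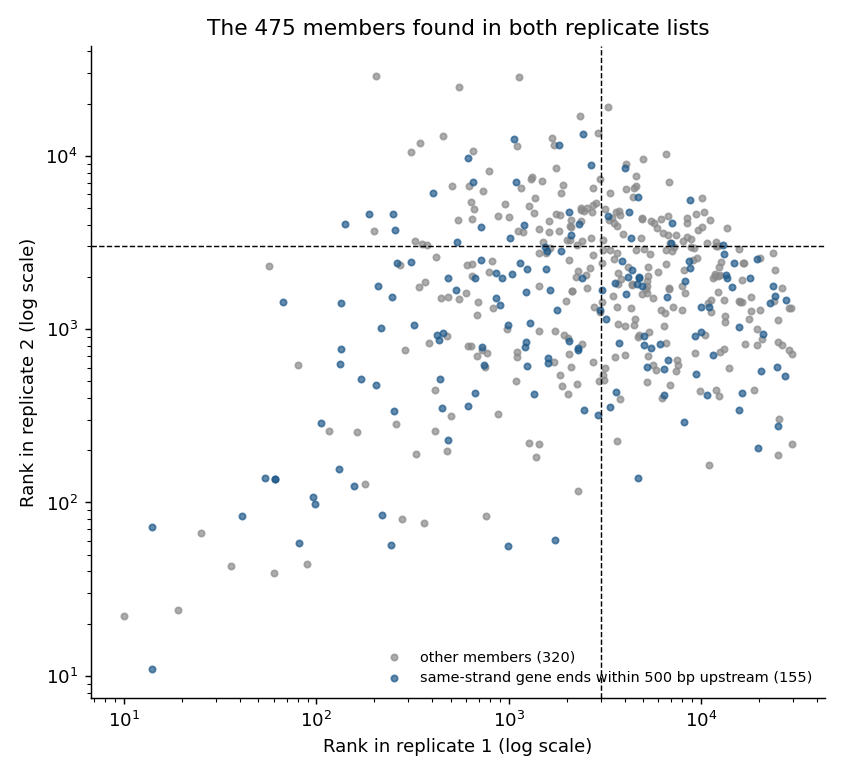
Rank in replicate 1 (horizontal) against rank in replicate 2 (vertical), both on logarithmic axes, for the 475 members with a region in both lists. Dashed lines mark rank 3000, and blue points are the members whose target has a same-strand gene ending within 500 bp upstream. Agreement is closest at the lower left, and most points outside the top 3000 of 1 replicate lie to the right.

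The members with the largest rank ratio between the replicates, among the 475 with a region in both lists, show the size of the difference. The region 207 bp upstream of *lgg-1*, a worm homologue of the autophagy protein Atg8, ranked 203 in replicate 1 and 29035 in replicate 2. *F15G9.5* ranked 551 against 24946 and *fil-2*, a lipase gene, 57 against 2302. In the other direction, the region 475 bp upstream of *unc-70*, the beta-spectrin gene, ranked 29701 in replicate 1 and 216 in replicate 2. The region between *hsr-9* and the ribosomal gene *rps-19* ranked 24949 against 189, and that of *rpac-19*, a subunit of RNA polymerases I and III, 19677 against 205. Apart from *fil-2*, each of these 6 ranked 19677 or worse in the weaker replicate. Members with no region in 1 list have no ratio, such as *cyc-2.1*, at 187 in replicate 1, and *drr-2* and *R02F2.1*, at 388 and 392 in replicate 2. At the limit of the rule, *Y81B9A.1*, *T24H10.1* and *pgap-3* were just inside at pooled ranks 2978, 2987 and 2988 (scores of 75.2), and *glit-1*, *lips-2* and *nspg-13* were just outside at 3020, 3021 and 3029 (scores from 74.92 to 74.99).

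The members had 529 target genes, which is 2.65% of the 19973 protein-coding genes and 13.0% of the 4081 with any listed promoter region. Most members, 481, had 1 target, and 33 had 2. Of the targets, 513 had 1 member and 15 had 2. The homeobox gene *unc-62* had 4 members, at pooled ranks 1136, 1698, 1809 and 2225, at different annotated starts of this gene. Regions were 390 bp wide in all but 4 members, and 6 adjacent pairs overlapped.

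Among 37 gene lists, which were matched by gene name and so miss genes named otherwise, 31 had at least 1 target. The lists held 107 of the 529 targets, beside 4379 of all 19973 protein-coding genes. Targets were thus no more often in a list than genes in general. The list of cytosolic ribosome genes had 10 targets among 30 genes with a listed promoter region (33.3%, exact interval 17.3 to 52.8%), beside the 13.0% over all genes. The large subunit gave *rpl-3*, *rpl-11.1*, *rpl-15*, *rpl-20* and *rpl-35*, and the small subunit *rps-8*, *rps-16*, *rps-19* and *rps-23*. The tenth by name, *rpl-24.2*, is a putative ribosome biogenesis factor (RLP24) in RefSeq. Their pooled ranks ran from 20 to 2609, and the median summit offset, measured to the listed gene, was -297 bp. The -106 bp of all members is measured to the nearest target only, so the medians are unlike measures. Of these 10, 3 were the more distant target of a divergent pair. The top 3000 of replicate 1 alone gave 8 ribosomal targets and that of replicate 2 alone 12, and a narrower window, from -250 to 50 bp, gave 3. The list of mitochondrial respiration genes had 5 of 14 (35.7%, 12.8 to 64.9%, an interval that includes 13.0%), namely *cox-5A* and *cox-5B* of cytochrome c oxidase, *atp-4* of the ATP synthase, *cyc-2.1*, a cytochrome c, and *ucr-2.1* of the cytochrome bc1 complex. A complex I gene outside the list, *nduf-7*, was also a target. *cyc-2.1* had 2 members, and the better one, at pooled rank 1992, ranked 187 in replicate 1 and had no region in replicate 2.

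Among genes for protein folding, both genes of the CCT chaperonin with a listed promoter region, *cct-8* and *cct-7*, were targets, each as the farther gene of a divergent pair, at ranks 92 and 957. The narrower window left neither, and replicate 2 alone left 1. The list of heat shock proteins and chaperones had 4 of 20 (20%, 5.73 to 43.7%): *dnj-13*, a DnaJ protein, at rank 108, *hsp-3*, an HSP70 of the endoplasmic reticulum, at 303, *hsp-90* at 1649 and *dnj-10* at 2845. The interval includes 13.0%, and replicate 1 alone gave 2. Outside the list, the HSP70 genes *F44E5.4* and *F44E5.5*, shared a region at rank 42. The gene of the 10 kDa mitochondrial chaperonin, *Y22D7AL.10*, had a summit 231 bp upstream at rank 138. It shares its upstream intergenic space with *hsp-60*, whose start was 582 bp away and so outside the window.

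For most other lists the interval included 13.0%. Cell cycle genes had 6 of 23 (26.1%, 10.2 to 48.4%), with the AAA ATPase gene *cdc-48.1* at rank 186 and the cyclin-dependent kinase gene *cdk-4* at 922. Chromatin regulators had 5 of 22, with *lin-52* of the DREAM complex at 385 and the methyltransferase gene *set-16* at 625. *set-16* is the farther gene of the divergent pair with *drr-2*, whose region ranked 388 in replicate 2 and had no region in replicate 1. The small RNA pathway had 4 of 23: *ego-1*, the exonuclease gene *eri-1* at 580, the Argonaute gene *wago-1* at 1812 and *eri-5* at 1984. The muscle list had 4 of 20, with *unc-60*, which encodes cofilin, at 668 and the paramyosin gene *unc-15* at 1699, and replicate 2 alone gave 2. The list of bZIP and bHLH factors also had 4 of 20, among them *hlh-30*, the TFEB homologue, at 676 and *skn-1*, the Nrf homologue, at 2690, and replicate 1 alone gave 2. By RefSeq product *mdl-1*, *Y7A9D.1*, *F13A7.14* and *crh-2* are further targets of these types. The forkhead list had 1 of 9 with a listed region, *pha-4*, with a summit 400 bp upstream at pooled rank 387 and ranks of 614 and 803 in the replicates. It also lies within 100 bp of the noncoding RNA gene *F38A6.9*. Outside the list, RefSeq names *C34B4.2*, a target at pooled rank 2377, as a forkhead domain protein. Chemoreceptor genes, a family of 1310, had 4 targets among 114 with a region (3.51%, 0.964 to 8.74%), and replicate 2 alone gave 7. The list of ubiquitin system genes, mostly F-box, MATH and conjugating enzyme families by name, had 2 of 54 (3.7%, 0.452 to 12.7%), and replicate 1 alone gave 5. It lacks *wwp-1*, *Y71F9AL.10*, *ncl-1*, *C18B12.4*, *Y47G6A.31* and *fbxl-2*, which are targets with an E3 ligase, RING or F-box product in RefSeq, so its share does not describe all ubiquitin genes. Lists without a target were those of the proteasome, the vacuolar ATPase (genes named vha), and the Integrator and SNAPc complexes. The nuclear pore and the major sperm proteins (genes named msp) also had none. In this order the lists had 6, 7, 3, 1, 5 and 0 genes with a listed promoter region, too few to show an absence. Replicate 1 alone gave 2 proteasome targets, and replicate 2 alone gave 2 of the vacuolar ATPase and 1 of Integrator. By RefSeq product, however, the target *unc-32* is a vacuolar ATPase subunit and the target *T05D4.5* a major sperm protein. With 37 lists and mostly fewer than 30 genes in each, these shares were described and not tested.

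**Figure D3:**
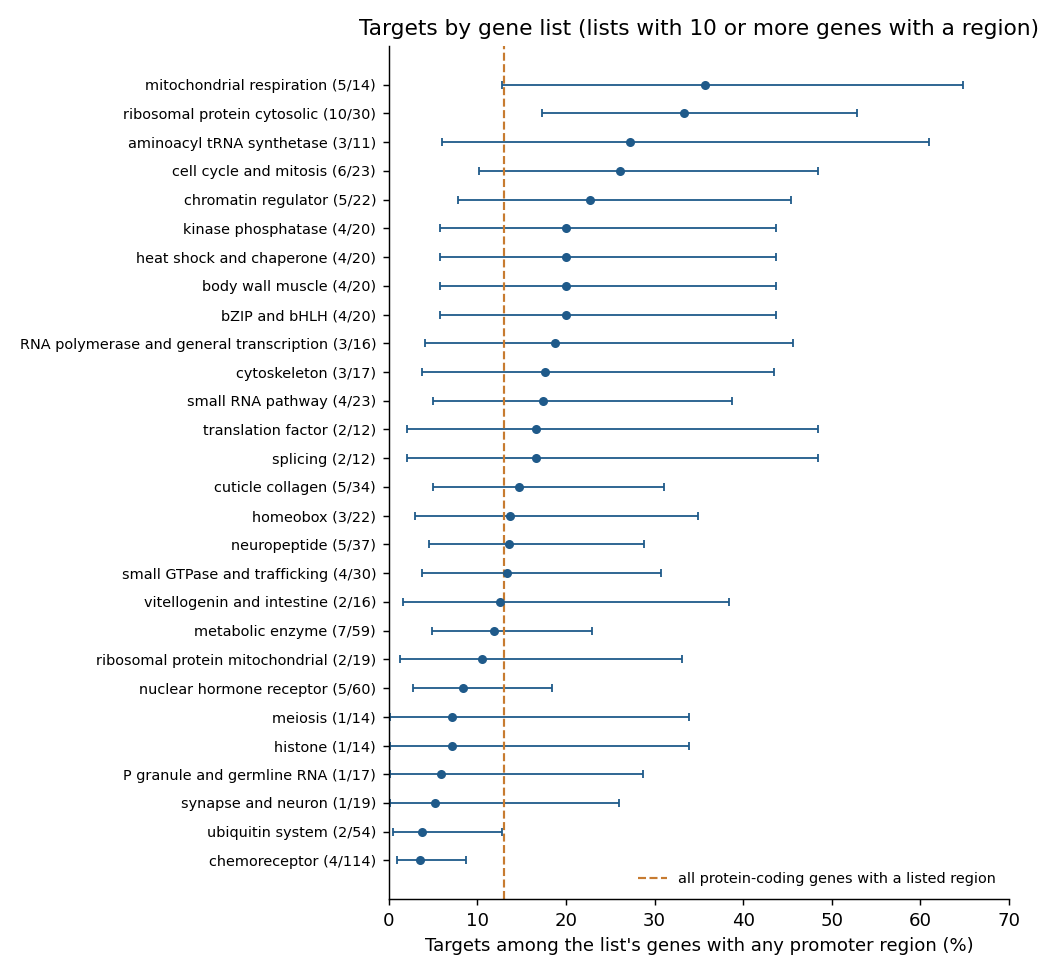
Percentage of a list's genes with any listed promoter region that are targets of the members (points, with exact 95% intervals as bars), for the 28 lists, matched by gene name, with at least 10 such genes, given in brackets with the targets. The dashed line is the 13.0% over all genes; the cytosolic ribosome interval lies above it and those of the ubiquitin system and the chemoreceptors lie below it.

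Divergent promoters, in which the summit lies in the windows of genes on both strands, were few. There were 26 of 514 (5.06%, 3.33 to 7.32%), beside 160 of the 4009 promoter regions of lower rank (3.99%, 3.41 to 4.64%), and the intervals overlap. Among the promoter regions of the top 3000 of replicate 1 alone the share was 3.23%, below that of the lower-ranked regions, and of replicate 2 alone 5.65%. With any opposite-strand start within 1000 bp upstream of the nearest target counted, the shares were 9.53% and 8.9%. The pair of HSP70 genes had the highest rank, 42 in the pooled list and 25 and 67 in the replicates, with the summit 160 and 191 bp from the starts. The next pairs were *Y17G9B.5*, for the mitochondrial protein ECSIT, with *rpl-20* at rank 81, *Y55F3AR.2*, with a thioredoxin domain, with *cct-8* at 92, and *rpl-15* with *K11H12.8* at 173. At 418 was *ears-2*, a glutamyl-tRNA synthetase gene, with *uncp-18*. These 5 pairs ranked in the top 1214 of both replicates. Lower pairs joined *hsr-9* with *rps-19*, *trap-3* with *sec-61.B*, both of the protein translocation machinery of the endoplasmic reticulum, *T10B5.4* with *cct-7*, *enpl-1* with *imp-2* and *dpm-3* with *rps-23*. At 16 of the 26 divergent promoters (61.5%) the window held GCGC, beside 39.1% of the 488 single ones. These 2 groups were not matched for summit position. GCGC was at 46.97% of members upstream of the start and at 21.5% of those at or past it.

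The summit lay a median of 106 bp upstream of the nearest annotated start (quartiles -257.75 and 4 bp), beside 138 bp at the promoter regions of lower rank. At the promoter regions of ranks 3001 to 6000 the median offset was -109 bp, close to that of the members. The summit was upstream at 379 members (73.7%, 69.7 to 77.5%), beside 75.6% of all lower-ranked promoter regions. Within 50 bp of the start were 27.04% of members (23.2 to 31.1%), beside 22.9%. Of all summits 44.7% were between genes, 23.3% in coding exons, 17.7% in introns, 11.3% in 5'UTRs and 2.92% in 3'UTRs. Each of these shares was within 3 percentage points of that of the lower-ranked promoter regions, for which they were 43.5%, 23.9%, 20.2%, 9.005% and 3.44%.

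**Figure D4:**
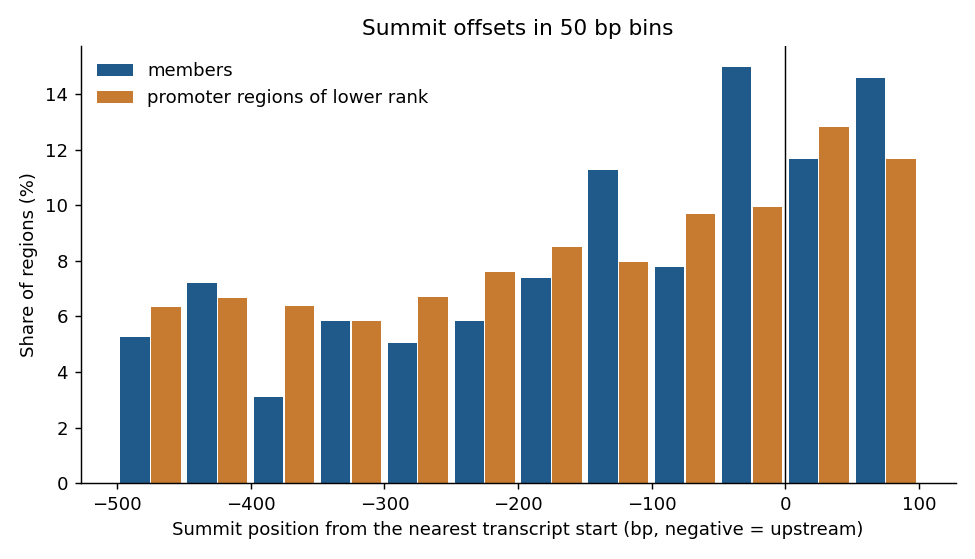
Share of summits (vertical, in percent) in bins of 50 bp from the nearest annotated transcript start (horizontal, negative upstream), for the 514 members and the 4009 promoter regions of lower rank. Members have their highest bin just upstream of the start, at 14.98% beside 9.93%. The bin from 50 to 100 bp inside the gene is nearly as high, at 14.6% beside 11.6%. Both sets reach well into the gene.

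A close gene on the same strand was most frequent at the promoter regions of highest rank. For each member, the gap was measured from the outermost start of its nearest target to the end of the next protein-coding gene upstream. This measure was added after seeing the data. A same-strand gene ended within 500 bp at 170 members (33.1%, 29.0 to 37.3%), beside 22.6% (21.3 to 24.0%) of the lower-ranked promoter regions and 18.1% of all protein-coding genes. The share was 49.3% for pooled ranks 1 to 500 (36 of 73), 37.8% for 501 to 1000 and 35.2% for 1001 to 1500. It was 25.9% for 1501 to 3000, beside 26.25% (23.6 to 29.0%) for 3001 to 10000 and 20.0% for 20001 to 30000. Members of pooled ranks 1501 to 3000 thus had no higher share than the promoter regions of ranks 3001 to 10000. Each replicate list, ranked on its own signal, gave a like order: 47.1% in the top 500 of replicate 1 and 45.6% in that of replicate 2, beside 21.9% and 20.3% in ranks 20001 to 30000. In replicate 2 the share was still 35.9% in ranks 1501 to 3000, where replicate 1 had 26.7%. The promoter share itself moved little, from 17.1% of regions in the top 3000 to between 13.9% and 15.6% in each later 3000.

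**Figure D5:**
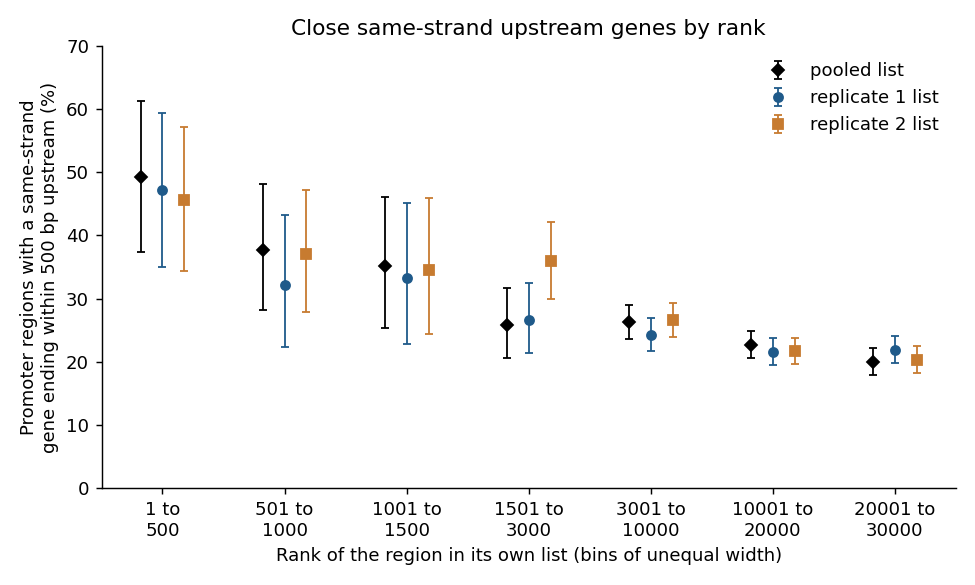
Percentage of promoter regions whose nearest target has a same-strand protein-coding gene ending within 500 bp upstream (points, with exact 95% intervals as bars), by rank in the pooled list, replicate 1 and replicate 2. In all 3 lists the share is between 45.6% and 49.3% for ranks 1 to 500 and between 20.0% and 21.9% for ranks 20001 to 30000.

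At these 170 members the gap had a median of 153 bp (quartiles 101 and 279 bp). The summit lay in the gap at 71 (41.8%), in the target gene at or past its start at 59 (34.7%), and in the upstream gene at 23 (13.5%). At 16 (9.41%) it lay in the target gene past another start, and at 1 in another gene. Of the 25 strongest members, 12 had this layout. The region of *rps-16* ranked 53, 41 and 83 in the pooled, first and second lists, with its summit 91 bp inside the gene. The end of *fib-1*, the gene of the nucleolar protein fibrillarin, is 110 bp upstream of *rps-16*. *F42A6.6* ranked 63, 81 and 58 and follows *hrpa-1*, an hnRNP gene, by 47 bp. *D2096.7* ranked 101, 61 and 136 and follows *nap-1*, for a nucleosome assembly protein, by 75 bp. *byn-1* ranked 105, 219 and 85 and follows *inf-1*, for translation initiation factor eIF4A, by 48 bp. *kap-1* follows the protein phosphatase gene *gsp-2* by 70 bp, and *dpf-3*, which ranked 132, 54 and 138, follows *ahcy-1*, for S-adenosylhomocysteine hydrolase, by 214 bp. Of the 164 distinct upstream genes, the lists of the cytosolic ribosome and of the cell cycle each held 5, those of heat shock proteins and of metabolic enzymes 4 each and that of CCT 3. These are counts of lists of unequal size and were not compared with all upstream genes. Whether the members with this layout lie in operons was not tested.

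The 201 bp around the summits had a median GC content of 43.3% (quartiles 37.8 and 49.3%), beside 40.3% at lower-ranked promoter regions. At the promoter regions of ranks 3001 to 6000 the median was also 43.3%. A forkhead word was found at 80 members (15.6%, 12.5 to 19.0%), beside 17.3% (16.2 to 18.5%), and GTAAACA alone at 17 (3.31%), beside 2.92%. A forkhead word was at 4 of the top 25, at 16.4% of members in pooled ranks 1 to 500, at 12 of the 64 in the IDR list (18.75%) beside 15.1% of the other members, and at 13.5% of those in the top 3000 of both replicates beside 16.5% of the rest. GTAAACA was at 4 of the 64 (6.25%) beside 2.89%. These shares are given without a test. GCGC was found at 207 members (40.3%, 36.0 to 44.7%), beside 30.2% (28.7 to 31.6%) of lower-ranked promoter regions and 35.98% of those of ranks 3001 to 6000. Among members upstream of the start the share was 46.97%, beside 31.2% of lower-ranked regions upstream, and among those at or past the start it was 21.5%, beside 26.8%. By GC content of the window, GCGC was at 30.1% of members and 16.7% of the others under 35% GC, at 31.7% and 22.3% from 35 to 40%, and at 33.3% and 33.5% from 40 to 45%. From 45 to 50% GC it was at 35.7% and 39.7%, and over 50% GC at 63.9% and 57.4%. The E-box word CANNTG (58.6% beside 57.3%), the TATA word TATAAA (14.0% beside 17.01%), GAGAG (42.4% beside 36.2%) and GAANNTTC (11.7% beside 11.0%) were also counted. The B-box word occurred at 4 members (0.778%, beside 0.499%), at *T13C5.6*, *sms-3*, *ZK816.3* and *ZK262.2*.

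The rule removed only tRNA, snoRNA and snRNA genes, and other noncoding genes remained near the summits. A noncoding RNA gene, pseudogene or small RNA gene of another type lay within 100 bp at 55 members (10.7%, 8.16 to 13.7%). Of all lower-ranked promoter regions 7.03% (6.26 to 7.87%) had such a gene. Promoter regions of ranks 3001 to 6000 had a share of 10.15%, close to that of the members. Among the 25 strongest members, those with such a gene were *wwp-1* with *Y65B4BR.10*, *T13C5.6* with *C14F11.14*, *dnj-13* with *F54D5.22* and *pcrg-1* with *mrpr-1*, the RNA component of RNase MRP. At these 4 the signal of the noncoding gene and that of the protein-coding promoter cannot be told apart. A microRNA gene lay within 100 bp at 4 members and a piRNA gene at 1.

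The members were spread over all chromosomes, with 88 on I, 89 on II, 77 on III, 88 on IV, 89 on V and 83 on X. By gene number, targets were 1.76% of the genes of chromosome V, 3.3% of those of I and 3.11% of those of X. X held 16.1% of members (13.1 to 19.6%), beside 17.9% of the lower-ranked promoter regions. Words of 30 bases that recur in the genome occurred in the windows of 49 members (9.53%), beside 11.2%, and made up over 50% of the window at 3, *sto-4*, *clec-80* and *C36C5.12*.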

How the data were processed

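Chromatin from 2 biological replicates was recovered with an antibody against GFP and sequenced, per the labels, although the antibody field names FKH-3. The authors deposited narrowPeak lists of 30000 regions, peaks and background together, for each replicate and for both pooled, and the regions past an IDR threshold. Per the submitters' text files each list was made from alignments of the replicates and of a control. Which aligner and peak caller were run is not given in the sources used here. In the deposited lists the signal is a score whose scale is not stated, so only ranks within a list were compared, and the lists also give the deposited −log10 of a q-value, used for an alternative ranking. No read counts are given, so depth is unknown, and the exact 95% (Clopper-Pearson) intervals cover counting error of regions only. Lists on ce10 were not used.

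Summits on ce11 were set against the gene models of Ensembl 115 on WBcel235, which is that assembly, and no pooled region (of 30000) ran past a chromosome end. A replicate rank is that of the strongest replicate region over the summit. Divergent means targets on both strands. No test was run, since the regions were selected on pooled signal; the promoter regions of lower rank, which share libraries and normalisation with the members, served as a comparison. Gene lists were matched by gene name, and gene products came from RefSeq. Words were searched in 201 bp around each summit on both strands. Functions were tested on simulated data with planted summits, words and regions. Scripts used Python 3.11.15 with pandas 2.3.3, numpy 2.4.6, matplotlib 3.10.9 and scipy 1.17.1. Printed sequences are those of the 10 members of highest signal that are not on chromosome I and whose window, narrowed where needed, overlaps no annotated UTR.

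The members and the gene lists were chosen with earlier results of these data known. Named genes are the 25 members of highest signal, up to 4 targets of best rank for each list, the 3 regions nearest the rank limit on each side, the 3 members of largest rank ratio each way, and the genes with most members. The upstream neighbours, the counts of GAANNTTC and the B-box word, the divergent pairs of lower rank, the upstream genes that are named and other genes outside this rule were chosen after their values were seen.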

Additional observations from a re-analysis of the deposited data

How the results depend on the processing

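Results were recomputed under each alternative with the rest unchanged. Of 130 values, 97 stayed within the interval or within a factor of 1.5 of the reported one. Ranking by q-value returned the same value for every result, so it was no separate check, although its values are counted among the 97. Small RNA distances of 0 and 500 bp moved none. With the top 1000 or top 5000 regions there were 171 or 807 members and 182 or 805 targets, 71.3% or 19.6% of members were in the top 3000 of both replicates and 37.4% or 7.93% in the IDR list; with the top 1000, 11.7% were on X and 42.7% had a close same-strand gene. A narrower window, from -250 to 50 bp, gave 309 members, 318 targets, 2.91% divergent, 79.9% upstream, a median offset of -67 bp and 41.8% GC. A wider one, from -1000 to 200 bp, gave 866, 881, 69.4% upstream and -144 bp. Leaving out summits at any noncoding RNA gene gave 12.1% on X. With only the most upstream start of each gene there were 366 members and 390 targets, both within the factor of 1.5. Of these members 40.2% had a close same-strand gene. Counting opposite-strand starts within 1000 bp gave 9.53% divergent, and matching summits within 100 bp gave 25.1% in both replicates. With 50 or 200 bp each side the median GC was 45.5% or 40.9%, and the forkhead words occurred at 9.34% or 30.2%; GTAAACA alone occurred at 3.31%. A gap of 200 or 1000 bp gave 20.0% or 43.6% with a close same-strand gene. From 1 replicate alone (without replicate 1 and without replicate 2) there were 495 to 513 members and 493 to 524 targets, divergent promoters were 3.23% to 5.65%, and the share with a close same-strand gene was 31.5% to 37.4%. Of 259 counts of targets in gene lists, 162 stayed within a factor of 1.5. No paired analysis was possible because there was 1 group. The alternatives for the close same-strand gene were chosen after seeing the data.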
